A study of Mus musculus with 12 samples.

Results

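The change between 3 and 6 h of Activin was followed in 2 mouse embryonic stem cell lines that lack Arkadia, the lines 25 and 39 labelled Arkadia -/- (called null here). The 4 libraries concerned, of 12 in the series, are the 3 h and the 6 h dish of each null line. They were chosen by labelled genotype and time, and each 6 h dish was compared with the 3 h dish of the same line. Every line of the series is of the 129SvEv strain. Before the experiment the cells grew in LIF with inhibitors of GSK3 and MEK on gelatin, and were then plated on fibronectin in N2B27, a serum-free medium without these factors, for 24 h. SB431542, an inhibitor of the kinases ALK4, ALK5 and ALK7 through which Activin, Nodal and TGFβ signal, was then present at 10 µM for 4 h in all dishes. A dish of each line was frozen after the inhibitor (SB below). In the remaining ones it was washed out and replaced by Activin A (10 ng/ml in N2B27), for 3 h in one dish and 6 h in another. The 2 wild-type lines (WT, lines 18 and 26) went through the same steps and are used here only to set their change over the same interval beside the null one. The labels do not say how the lines were derived, and each line gave 1 dish per time. Both dishes compared held Activin and none was kept in fresh medium without it, so hours of Activin, hours since the inhibitor was removed and hours in culture cannot be told apart.

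Activin binds receptor kinases that phosphorylate SMAD2 and SMAD3, which join SMAD4 and act in the nucleus with partners such as FOXH1. Among the genes they switch on are brakes on the pathway itself, including the secreted Nodal antagonists Lefty1 and Lefty2 and the intracellular inhibitors Smad7 and Pmepa1. SnoN (Skil) and SKI are nuclear corepressors of the same SMADs, and Arkadia, the product of Rnf111, is a ubiquitin ligase that marks both for degradation. In embryonic stem cells leaving the naive state, the pathway supports Nanog and the early genes of mesoderm and endoderm.

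Values are FPKM, that is reads scaled to transcript length and to library depth. Rnf111 (GRCm38, chromosome 9, 70425424 to 70503725, minus strand) stood at 0.832 and 0.650 FPKM at 3 h and at 0.667 and 0.539 at 6 h in null lines 25 and 39. In WT lines 18 and 26 it stood at 3.85 and 3.76 FPKM at 3 h and at 3.42 and 3.19 at 6 h, above every null library. Pou5f1, the pluripotency factor Oct4, stood at 698 to 926 FPKM in the 4 null libraries. Relative sequencing depth, recovered from the steps between low FPKM values, ran from 1 (line 39 at 6 h) to 1.33 (line 25 at 3 h), so read number was similar but unknown in absolute terms. Ribosomal protein genes took 17.2 to 18.7% of the summed FPKM. One locus, Gm42418, which overlaps ribosomal RNA sequence, took 6.58% in line 25 at 3 h against 1.79 to 3.02% in the other 3 and 6 h null libraries. Counts were therefore also taken after leaving it out and scaling all libraries to the same summed FPKM of the remaining genes (rescaling without Gm42418 below). This step also evens out other differences in summed FPKM, which over all loci was 779113 and 697333 in line 25 at 3 and 6 h. Its effect is thus not that of Gm42418 alone.

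Of 12823 genes tested, 1724 (13.4%) differed between 3 and 6 h in null lines at an adjusted p under 0.05 (limma on log2(FPKM + 1), cell line as a block, Benjamini-Hochberg adjustment). The rise covered 1140 genes (8.89% of those tested) and the fall 584 (4.55%). "Rose" and "fell" below refer to this test, and changes are given as log2(FPKM + 1) differences with their standard error (SE), n = 2 lines per time. The SE comes from a single fit of all libraries, SB and WT dishes included, and is not the spread of the 2 null lines alone. All 1724 genes moved the same way in both null lines. The call largely requires this, since opposite changes give a small mean and a wide spread, so it is no separate support. Most changes were small: the median was 0.32 for genes that rose and -0.44 for genes that fell, and 1304 calls were below 0.5 in size. A change of at least 2-fold was reached by 20 genes that rose (0.156%) and 35 that fell (0.273%). The falls prevailed among genes of low level, with 264 falls and 187 rises below a mean of 5 FPKM, and the rises among genes of 20 to 100 FPKM, with 465 rises and 93 falls. The median change of all genes was 0.02.

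These counts rest on all 4 lines. Leaving out null line 25, null line 39, WT line 18 or WT line 26 left 0 calls each by limma, with smallest adjusted p of 0.0929, 0.0692, 0.0567 and 0.0564 and with 2904, 3050, 3372 and 3370 genes at an unadjusted p under 0.05. The 3 and 6 h null libraries alone, with 1 residual degree of freedom, gave 0 calls and 2853 such genes. Without the block there were 594 calls (356 rises, 238 falls), and 36 of the 92 genes named below as risen or fallen were not among them. Quantile normalization gave 681 rises and 582 falls, so that rises made up 53.9% of calls instead of 66.1%, and rescaling without Gm42418 gave 654 and 299.

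**Figure D1:**
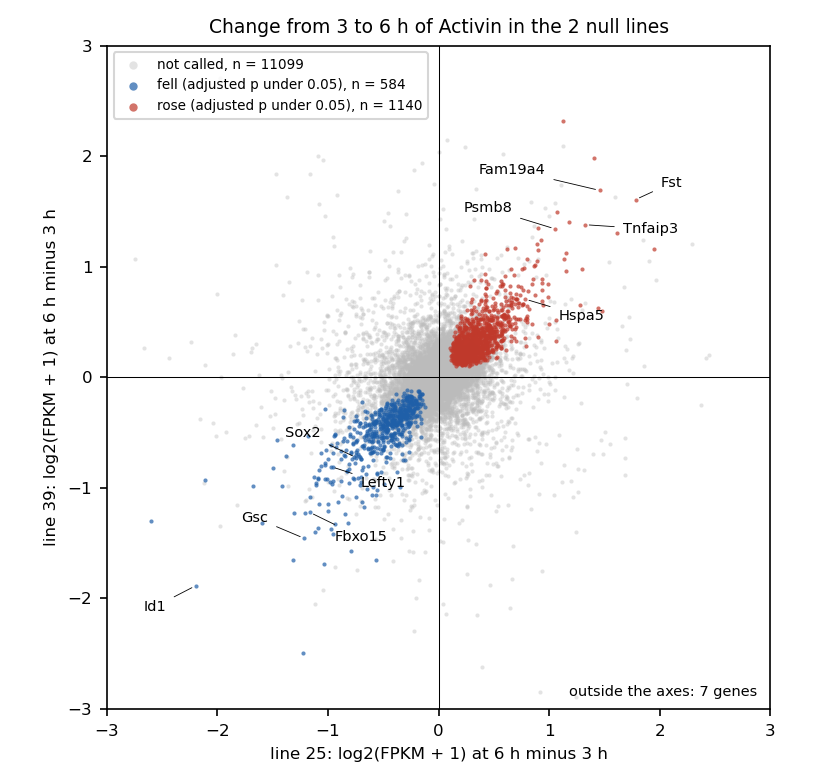
Change in log2(FPKM + 1) from 3 to 6 h in null line 25 (x axis) and null line 39 (y axis), one point per gene tested; red points rose, blue points fell and grey points were not called. The 1724 called genes lie to the lower left and upper right of 0, with Id1 far down and Fst far up in both lines, and 7 uncalled genes fall outside the axes.

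Among the feedback brakes of the pathway, Lefty1, Lefty2, Smad7 and Pmepa1 fell from their 3 h level. Lefty1 (GRCm38, chromosome 1, 180935022 to 180938400, plus strand) was near absent in SB, at 0.109 and 0.127 FPKM in lines 25 and 39. It stood at 70.5 and 49.4 FPKM at 3 h and at 35.4 and 27.8 at 6 h. Both 6 h values lay below both 3 h values, and the change was -0.89 (SE 0.12, limma adjusted p = 0.0114). Its paralog Lefty2 went from 27.9 and 21 FPKM to 19.4 and 13.0 (-0.58, SE 0.14, limma adjusted p = 0.0435). Smad7, which blocks the receptors from inside the cell, went from 8.46 and 9.30 FPKM to 4.83 and 4.35 (-0.82, SE 0.08, limma adjusted p = 0.00575). Pmepa1, which keeps SMAD2 and SMAD3 from the receptor, fell as well (-0.97), but its locus covers only a minor part of the annotated gene and its value describes that part. All 4 stayed above their SB level at 6 h in both lines. Without the block Lefty2 was not called (limma adjusted p = 0.116), nor was it without the variance trend, at a pseudocount of 0.1, under quantile normalization or after rescaling without Gm42418. Pmepa1 lost its call at a pseudocount of 0.1.

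Of the 2 corepressors that Arkadia targets, Ski fell, from 6.25 and 5.78 FPKM to 3.83 and 3.71 (-0.56, SE 0.08, limma adjusted p = 0.0115). Skil stood at 15.7 and 16.2 FPKM at 3 h and at 14.1 and 14 at 6 h, a difference of -0.17 that did not pass (SE 0.06, limma adjusted p = 0.0995). These are transcript levels, and SnoN and SKI protein was not analysed here. Of 33 SMAD pathway components tested, 6 fell and none rose by limma (median -0.17), which is 18.2% against 4.55% of all genes. The falls included Smad6, an inhibitor of BMP signalling (-0.82), Smurf1, a ubiquitin ligase for SMADs and receptors (-0.42), the corepressor Tgif1 (-0.26) and Foxh1 (-0.29), the last not without the block and the last pair not after rescaling without Gm42418. The transducers Smad2, Smad3 and Smad4 were not called, at 10.0 and 10.9, 1.14 and 0.810, and 10.1 and 10.6 FPKM at 6 h.

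The ligand Nodal and its co-receptor Tdgf1 (Cripto) did not pass the test. Nodal stood at 40.8 and 43.5 FPKM at 3 h and at 42.7 and 51.9 at 6 h, and Tdgf1 at 210 and 259 and then at 214 and 270. Follistatin (Fst), a secreted protein that binds and neutralises Activin, was among the largest rises. It stood at 8.55 and 9.45 FPKM in SB, at 6.94 and 9.63 at 3 h and at 26.3 and 31.4 at 6 h. The 3 h values overlapped those in SB, and both 6 h values were far above them (1.69, SE 0.09, limma adjusted p = 0.00311). Among 20 ligands and secreted antagonists tested, 3 rose and 3 fell (median 0.02), where 8.89% of all genes rose and 4.55% fell. Bmp4 rose from 3.75 and 2.86 FPKM to 6.07 and 4.88, and Tgfb2 rose by 0.40. Bmp7, at a partly covered locus, fell by 0.53. Without the block, or after rescaling without Gm42418, Bmp4, Tgfb2 and Bmp7 were not called. Bmp4 and Tgfb2 also lost their calls at pseudocounts of 0.1 and 0.5, Bmp4 without the variance trend and Bmp7 under quantile normalization.

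Activin and Nodal targets as a list gave 14 falls and 3 rises among 29 tested (median -0.30), beside 4.55% and 8.89% of all genes. The list was chosen with earlier results of these data known, so its count is no independent evidence of a direction. Without the block 9 fell and 1 rose. Besides the genes above, the falls held the homeobox gene Gsc, an early mark of the organizer and mesendoderm, which stood at 4.77 and 4.75 FPKM at 3 h and at 1.48 and 1.10 at 6 h (-1.34, SE 0.11, limma adjusted p = 0.00425). Wnt3, a ligand of the primitive streak, went from 3.95 and 3.08 FPKM to 2.41 and 2.08 (-0.47). The other direction was taken by T (Brachyury), the mesoderm transcription factor, at 1.46 and 1.90 FPKM at 3 h and at 2.64 and 4.14 at 6 h (0.70, SE 0.11, limma adjusted p = 0.0135). Its companion in WNT response, Sp5, rose by 0.74 to 1.72 and 1.52 FPKM. Eomes stood at 4.12 and 3.68 FPKM and then at 3.33 and 3.00, and Fgf8 at 6.53 and 3.67 and then at 3.52 and 3.73, and neither passed. Without the block, Wnt3, T and Sp5 were not called.

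**Figure D2:**
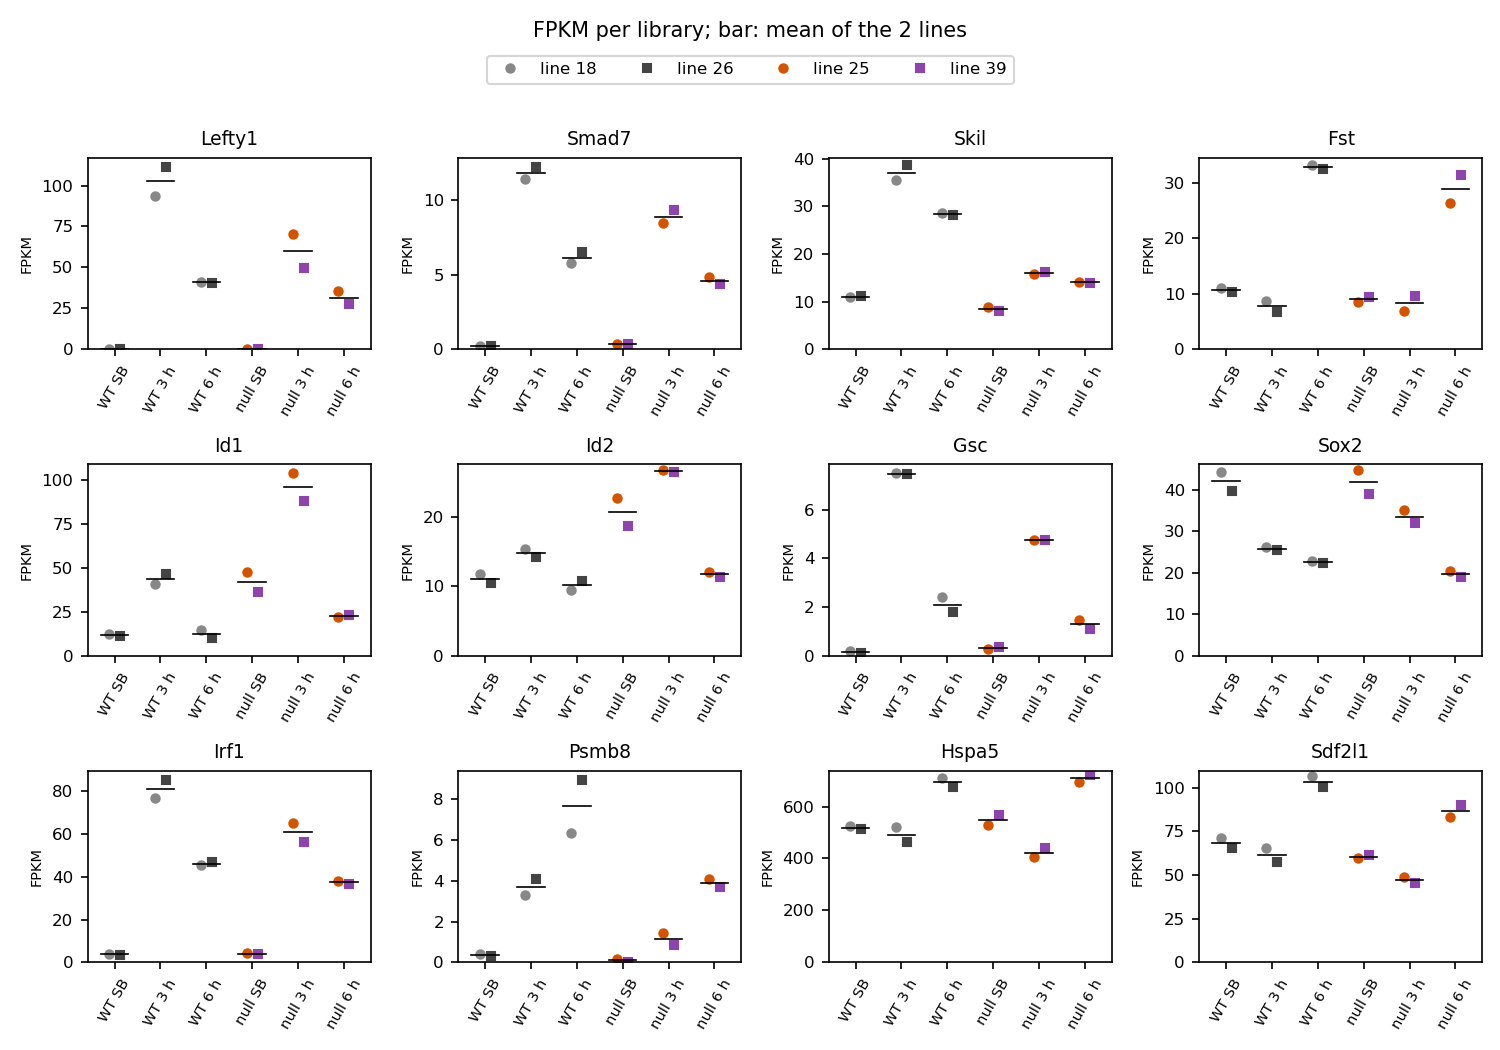
FPKM of 12 genes in each library, by genotype and treatment (SB, inhibitor; 3 h and 6 h, Activin); points are cell lines and bars are the mean of 2 lines, and each y axis starts at 0. In the null lines Lefty1, Smad7, Id1, Id2, Gsc, Sox2 and Irf1 were lower at 6 h than at 3 h in both lines, and Fst, Psmb8, Hspa5 and Sdf2l1 were higher.

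The Id genes, dominant-negative partners of basic helix-loop-helix factors and classic targets of BMP signalling, all fell, Id1 and Id4 by more than most genes. Id1 (GRCm38, chromosome 2, 152736251 to 152737410, plus strand) stood at 47.5 and 36.0 FPKM in SB, at 104 and 87.7 at 3 h and at 21.9 and 23 at 6 h. The 6 h values were below those in SB as well as those at 3 h, and the change of -2.04 (SE 0.16, limma adjusted p = 0.00425) was the largest fall of all called genes. Id2 went from 26.7 and 26.5 FPKM to 12.1 and 11.4 (-1.11, SE 0.09, limma adjusted p = 0.00425). Id3 went from 136 and 130 FPKM in SB to 101 and 96.6 at 3 h and to 73.8 and 77.8 at 6 h (-0.38). Id4 went from 3.36 and 5.27 FPKM to 0.866 and 0.114, a wide gap between lines at low level (-1.86, SE 0.43). The Id4 call was lost without the variance trend, at a pseudocount of 0.1 and after rescaling without Gm42418.

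Of 18 BMP targets tested, 9 fell and 1 rose, with a median of -0.78 (of all genes, 4.55% fell and 8.89% rose). The homeobox genes Msx1 and Msx2 were among the falls, Msx1 from 18.6 and 17.2 FPKM to 7.77 and 7.57 (-1.12, SE 0.10, limma adjusted p = 0.00425). The only rise in that list was Bmp4 itself. Gata2 fell too (-1.33), from 7.69 and 2.81 FPKM to 1.71 and 0.928, at a partly covered locus. The protocol in the labels names no added BMP. Without the block, Msx2, Gata2 and Bmp4 were not called. Msx2 and Bmp4 also lost their calls at pseudocounts of 0.1 and 0.5 and after rescaling without Gm42418. Msx2 was further lost under quantile normalization and Bmp4 without the variance trend. RefSeq promoter windows (GRCm38.p6, 250 bases before to 50 after a start) were given for 7 of the 9 BMP targets and 7 of the 14 Activin and Nodal targets that fell. The SMAD-binding letters CAGAC occurred on either strand in 2 and 4 of these, the GC-rich letters GGCGCC in 3 and 1, and the FOXH1 letters AATCCACA in none. Among the 9102 tested genes with a window, these shares were 52.5%, 25.3% and 0.681%.

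Pluripotency factors moved unevenly. Nanog, which Activin sustains, stood at 5.44 and 4.98 FPKM in SB, at 69.9 and 67.2 at 3 h and at 44.7 and 49.5 at 6 h (-0.53, SE 0.08, limma adjusted p = 0.0145). Sox2 (GRCm38, chromosome 3, 34650405 to 34652461, plus strand) went from 44.8 and 38.9 FPKM in SB to 35.0 and 32.0 at 3 h and to 20.5 and 18.9 at 6 h. Each step was down in both lines, and from 3 to 6 h the change was -0.74 (SE 0.05, limma adjusted p = 0.00311). Pou5f1 did not pass, at 698 and 809 FPKM and then at 739 and 926. Of 19 core pluripotency genes 6 fell and 1, the RNA-binding protein Lin28b, rose (median -0.15), where 4.55% of all genes fell and 8.89% rose. Without the block 4 fell and 1 rose, and the rise of Lin28b was lost after rescaling without Gm42418. Sall4 and Sall1 each fell by 0.48, Sall1 not without the block.

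Of 14 naive pluripotency genes, 5 fell and 1 rose (median -0.30, with 4.55% and 8.89% over all genes), and without the block 2 fell, Klf2 and Klf5 not among the calls, while rescaling without Gm42418 left 3 falls. Fbxo15, an F-box gene of the pluripotent state, went from 57.7 and 49.8 FPKM to 25.1 and 20.8 (-1.19, SE 0.08, limma adjusted p = 0.00311). Klf2, a naive-state factor, went from 4.42 and 2.96 FPKM to 2.79 and 1.76 (-0.52), having stood at 11.8 and 8.32 in SB. Klf5 rose by 0.30. Among 19 genes of the formative and primed epiblast, 8 fell and 2 rose (median -0.21, with 4.55% of all genes falling), and without the block 5 fell. Otx2, a driver of the epiblast state, went from 62.5 and 62.5 FPKM to 41.9 and 44.3 (-0.53), and Foxd3 fell by 0.58. The rises were Fgf5, the standard epiblast marker, from 16.1 and 15.9 FPKM to 24.5 and 22.3 (0.52, SE 0.06, limma adjusted p = 0.00748), and the carbonic anhydrase Car4, from 52.5 and 46.8 to 88.9 and 83.2 (0.78).

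Most genes of the response to unfolded protein in the endoplasmic reticulum rose. The response raises chaperones and disulfide isomerases when unfolded protein collects there. Of 23 such genes tested, 15 (65.2%) rose and none fell by limma, with a median of 0.46, against 8.89% that rose among all genes. The count that rose was 13 to 15 without the block, under quantile normalization, after rescaling without Gm42418, at a pseudocount of 0.1 and with a filter at 5 FPKM. Hspa5 (BiP, the main chaperone of the compartment; GRCm38, chromosome 2, 34771970 to 34777547, plus strand) stood at 527 and 567 FPKM in SB, at 405 and 441 at 3 h and at 696 and 721 at 6 h. The 3 h values were the lowest and the 6 h values the highest of the null libraries (0.74, SE 0.05, limma adjusted p = 0.00311).

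The same order, lowest at 3 h and highest at 6 h in both lines, was seen for the BiP cofactor Sdf2l1, at 59.5 and 61.4 FPKM in SB, 49.0 and 45.2 at 3 h and 83.0 and 90.2 at 6 h (0.87). The disulfide isomerase Pdia4 rose from 55.6 and 54.4 FPKM to 97.8 and 94.1 (0.79), and Hsp90b1 (GRP94) from 136 and 146 to 237 and 214 (0.68). Creld2 (0.71) and the exchange factor Hyou1 (0.58) rose as well. Xbp1, a transcription factor of the response, rose from 13.8 and 10.7 FPKM to 20.9 and 13.7, which was no higher than in SB (22.0 and 14), and was not called without the block. The sensors Atf6 and Ern1, both at partly covered loci, were not called. In WT lines 13 of the 23 rose and none fell, where 3.7% of all genes rose and 2.94% fell in WT lines.

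The endoplasmic reticulum stress element is the promoter sequence known to bind NF-Y and ATF6, written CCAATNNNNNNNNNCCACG. It was searched on both strands of the RefSeq windows because these genes rose together, a choice made after their values were seen. It occurred in 7 of 14 genes of the list that rose and had a window (50%). Of all tested list genes with a window, risen or not, 9 of 21 held it (42.9%). Its presence thus goes with the list, and a link to the rise was not tested. Over all tested genes with a window it occurred in 16 of 9102 (0.176%). Of those 16 genes, 9 rose and none fell by limma, where 8.89% of all genes tested rose and 4.55% fell. Of these 9, 7 are the list genes whose rise prompted the search, so the count is no separate support. The 7 stretches are shown 5′ to 3′ on the coding strand of the gene, with 15 bases on either side and the CCAAT and CCACG ends, or their reverse complements, in capitals. The ends and their spacing were set by the search, whereas the spacer letters, the flanks and the orientation were not, and a match is not a shown binding site.
Hspa5 (chr2:34772010-34772058, plus strand): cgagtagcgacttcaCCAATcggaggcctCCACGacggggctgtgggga
Pdia6 (chr12:17266476-17266524, plus strand): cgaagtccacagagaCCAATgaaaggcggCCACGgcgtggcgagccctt
Dnajc3 (chr14:118937812-118937860, plus strand): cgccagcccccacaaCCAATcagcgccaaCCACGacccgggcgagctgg
Creld2 (chr15:88819505-88819553, plus strand): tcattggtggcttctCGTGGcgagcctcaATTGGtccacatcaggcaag
Calr (chr8:84847060-84847108, minus strand): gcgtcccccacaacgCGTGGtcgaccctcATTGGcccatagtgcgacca
Canx (chr11:50325785-50325833, minus strand): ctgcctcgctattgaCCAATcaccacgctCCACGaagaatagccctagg
Hsp90b1 (chr10:86705518-86705671, minus strand): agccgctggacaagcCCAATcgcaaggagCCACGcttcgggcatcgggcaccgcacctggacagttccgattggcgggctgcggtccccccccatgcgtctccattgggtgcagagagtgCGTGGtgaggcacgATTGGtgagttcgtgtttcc

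Hsp90b1 holds 2 matches, 1 in each orientation. The matches lie between 212 and 47 bases before the start in RefSeq, which can differ from that in GENCODE: for Hspa5 the match lies after the GENCODE start given above. Beside those already given, the calcium-binding chaperone Calr rose from 370 and 340 FPKM to 524 and 498 (0.53), the isomerase Pdia6 from 232 and 236 to 327 and 342 (0.51), and the cochaperone Dnajc3 from 7.66 and 7.48 to 11.6 and 10.0 (0.46). Canx, the membrane-bound relative of Calr, showed the smallest rise of the 7 (0.24, SE 0.06, limma adjusted p = 0.0389), a call lost without the block, without the variance trend, under quantile normalization and after rescaling without Gm42418. Of the 7 tested genes with the element outside the list, 2 rose, the fatty acid enzyme gene Acacb (0.38, partly covered) and the mannosyltransferase gene Alg12 (0.26), both named after their values were seen and neither called without the block.

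**Figure D3:**
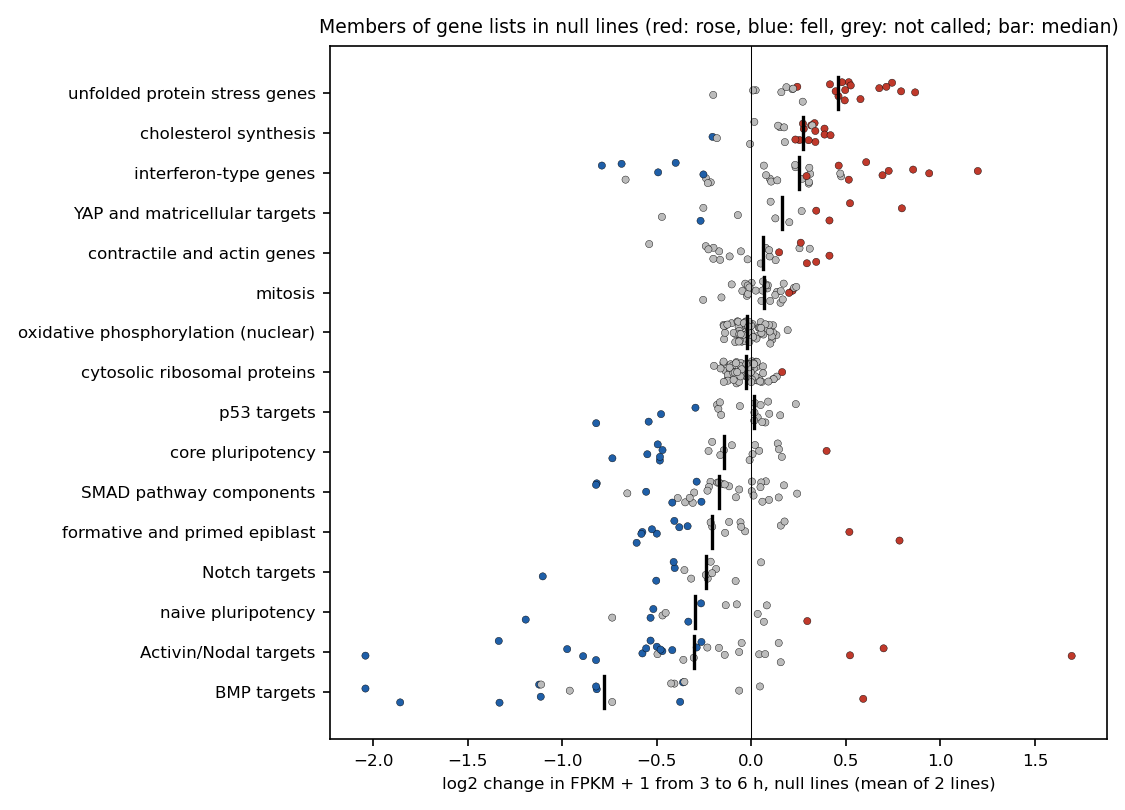
Change in log2(FPKM + 1) from 3 to 6 h in null lines for the tested members of 16 gene lists, 1 point per gene (red rose, blue fell, grey not called) and a bar at the median. The protein folding genes sit to the right with a median of 0.46, the BMP targets to the left with a median of -0.78, and ribosomal protein and oxidative phosphorylation genes close to 0.

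Interferon-type genes moved in both directions. Irf1, the transcription factor that leads much of that programme, stood at 4.30 and 3.76 FPKM in SB, at 65.3 and 56.3 at 3 h and at 37.8 and 36.8 at 6 h (-0.69, SE 0.07, limma adjusted p = 0.00645). Several genes that IRF1 is known to regulate rose over the same interval. The immunoproteasome subunit Psmb8 (GRCm38, chromosome 17, 34197721 to 34201454, plus strand) was at 0.181 and 0.0354 FPKM in SB, at 1.45 and 0.851 at 3 h and at 4.08 and 3.69 at 6 h (1.20, SE 0.15, limma adjusted p = 0.0084). The proteasome activator subunit Psme2 rose from 118 and 123 FPKM to 179 and 213 (0.69), and its partner Psme1 from 92.5 and 103 to 122 and 149 (0.46). Psmb9, Psmb10, Gbp2, Parp9, Ifi35 and Bst2 made up the rest of the 9 rises among 32 tested (median 0.25), where 8.89% of all genes rose and 4.55% fell. The 5 falls included Ifitm1, from 202 and 202 FPKM to 140 and 146, and Rnf213 at a partly covered locus. Without the block, 7 rose and 2 fell, Psmb9, Bst2 and Rnf213 not among them.

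The core of the interferon-stimulated response element was searched as GAAANNGAAA on both strands, again after values were seen. It lay in the window of 3 of 8 interferon-type genes that rose and had one, and in 12 of 27 tested, against 3.46% of tested genes with a window. Gbp2, a GTPase of cell defence, and Bst2 (tetherin) are shown because both rose, Gbp2 from 1.73 and 2.18 FPKM to 4.41 and 4.24 (0.86) and Bst2 from 106 and 114 to 126 and 145 (0.29). Capitals mark the match, or the overlapping matches.
Gbp2 (chr3:142620589-142620628, plus strand): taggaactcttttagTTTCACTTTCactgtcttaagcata
Bst2 (chr8:71537572-71537617, minus strand): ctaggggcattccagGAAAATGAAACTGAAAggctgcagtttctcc

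Cd40, a receptor of the TNF family, stood at 40.5 and 37.2 FPKM at 3 h and at 28 and 30.4 at 6 h, a fall of 0.40 (SE 0.10, limma adjusted p = 0.0431). Among 11 NF-kB targets 2 rose and 2 fell, where 8.89% of all genes rose and 4.55% fell. The rises were Ccl2, a chemokine, from 0.664 and 0.362 FPKM to 2.10 and 2.47, and Tnfaip3, an inhibitor of NF-kB, at a partly covered locus. The other fall was the adhesion molecule Icam1. Without the block, Cd40, Tnfaip3 and Icam1 were not called, and Cd40 also lost its call at pseudocounts of 0.1 and 0.5, without the variance trend and under quantile normalization.

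Sterol synthesis genes rose by small amounts. Of 21 tested, 12 rose and 1 fell (median 0.27), where 8.89% of all genes rose and 4.55% fell. Without the block 3 rose, against 356 of all 12823 genes. Msmo1, a sterol oxidase, went from 308 and 339 FPKM to 424 and 439 (0.42, SE 0.04, limma adjusted p = 0.00645). Cyp51, the lanosterol demethylase, went from 70.1 and 75.6 FPKM to 96.2 and 94.8 (0.39). The fatty acid genes differed: Fasn, Scd1, Scd2 and Srebf1 fell and Elovl5 and Acacb rose, among 14 tested. The glucose transporter gene Slc2a1, which stood at 116 and 110 FPKM in SB and at 55.2 and 49.2 at 3 h, fell further to 45.0 and 43.1 (-0.24). Without the block, Slc2a1 and the 6 fatty acid genes named were not called.

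Smaller groups showed a few called members each, to be read beside the 4.55% of all genes that fell and the 8.89% that rose. Without the block 2 of the Notch falls, 3 of the p53 target falls, 2 of the FGF falls and 1 of the peptide hormone rises passed. All 4 calls among 13 Notch genes were falls, led by the feedback gene Nrarp, from 6.03 and 5.41 FPKM to 2.52 and 1.77 (-1.10, SE 0.16, limma adjusted p = 0.0116). All 4 calls among 20 p53 targets were falls, with the antiproliferative gene Btg2 going from 16.4 and 14.5 FPKM to 8.92 and 7.73 (-0.82). The p53 targets as a list did not fall, with a median of 0.02 and 11 members with a positive change. Among 9 FGF ligands and receptors, 4 fell and 1 rose, and the receptor gene Fgfr1 fell by 0.64. Of 11 peptide hormone genes 3 rose, namely Trh (thyrotropin-releasing hormone), from 70.1 and 57.5 FPKM to 100 and 92.1 (0.59), Nppb (0.76) and Nts (0.58), the latter pair not without the block. Of 22 contractile and actin genes, 5 rose and none fell by limma, whereas quantile normalization gave 3 rises and 2 falls and the fit without the block gave 1 rise. Tagln, an actin-binding protein of smooth muscle, went from 501 and 429 FPKM to 617 and 619 (0.41).

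Housekeeping groups moved little. The counts in this paragraph are to be read beside the 8.89% of all genes that rose and the 4.55% that fell. Of 70 cytosolic ribosomal protein genes 1 rose (after rescaling without Gm42418, none rose and 1 fell), and of 60 nuclear oxidative phosphorylation genes none was called by limma, with medians of -0.03 and -0.02. Of 28 mitosis genes 2 rose, and of 27 S phase genes 1 rose and 1 fell, and without the block or after rescaling none of these passed in limma. Markers of other cells were also followed, and in bulk RNA fewer cells of a type and less RNA per cell cannot be told apart. Of 16 fibroblast markers listed 8 were tested and none was called by limma, and their summed level was 20.1 to 27.7 FPKM at 3 h and 17.9 to 20.5 at 6 h. Of 12 trophoblast markers 3 fell and 1 (Krt18) rose, none of them without the block by limma and with 1 fall alone left under quantile normalization or after rescaling, with summed levels of 127 to 178 FPKM at 3 h and 136 to 174 at 6 h. Of 6 endoderm markers 1 fell and of 13 neural genes 2 fell, and without the block none of these passed in limma. No tested marker of these lists was at 0 in a null 3 or 6 h library, except 1 neural gene in line 25 at 6 h. Their part in the results above was not tested.

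Many of the largest changes were at loci that cover only a minor part of the annotated gene, so that they describe a stretch rather than the gene. Among the 15 largest falls 8 were of this kind, and among the 15 largest rises 11, although such loci made up 18.7% of genes tested and 11.3% of calls. Of the largest changes at well covered loci, Sox13, a SOX family factor, fell from 5.93 and 5.48 FPKM to 1.99 and 1.76 (-1.22, SE 0.08, limma adjusted p = 0.00311). Lmo7, a cytoskeletal adaptor, went from 3.52 and 2.56 FPKM to 0.825 and 0.521, and Tctex1d1, a dynein light chain relative, from 6.38 and 6.45 to 2.40 and 1.82, but neither was called without the variance trend or after rescaling without Gm42418, Lmo7 not under quantile normalization and Tctex1d1 not without the block. Fam19a4, which encodes a secreted chemokine-like protein, rose from 2.30 and 1.80 FPKM to 8.05 and 8.02 (1.57, SE 0.12, limma adjusted p = 0.00388). At partly covered loci, Nin fell from 14.7 and 7.24 FPKM to 1.59 and 2.35, and Mn1 from 5.83 and 5.76 to 1.26 and 1.71. Cd200 rose from 3.38 and 11.9 FPKM to 15.8 and 27.9, a call lost without the block, and Zfp503 from 2.94 and 1.83 to 7.27 and 6.95. Gm9748 was listed at 0 in both 6 h libraries, from 3.32 and 0.905 FPKM.

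The same interval in WT lines gave 852 calls (6.64%), with 475 rises (3.7%) and 377 falls (2.94%). The WT and null changes share no library. Of the 1140 null rises, 355 (31.1%) were also WT rises, which is 74.7% of the WT rises, and of the 584 null falls 231 (39.6%) were also WT falls, 61.3% of those. Only 2 genes that rose in null lines fell in WT lines, 2610037D02Rik at a partly covered locus (0.45 and -0.46) and Rgs10 (0.27 and -0.34). Neither rise was called without the block (limma adjusted p = 0.421 and 0.0865), and that of Rgs10 was also lost under quantile normalization and after rescaling without Gm42418. The WT estimate had the same sign for 95.7% of null rises and 95.9% of null falls. The share over all genes tested was not taken, so these values cannot be set against it. Across genes, which are not independent replicates, Pearson's r of the 2 mean changes was 0.52. Between single lines it was 0.371 for the 2 null lines, 0.364 for the 2 WT lines and 0.339 to 0.379 for a null with a WT line.

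**Figure D4:**
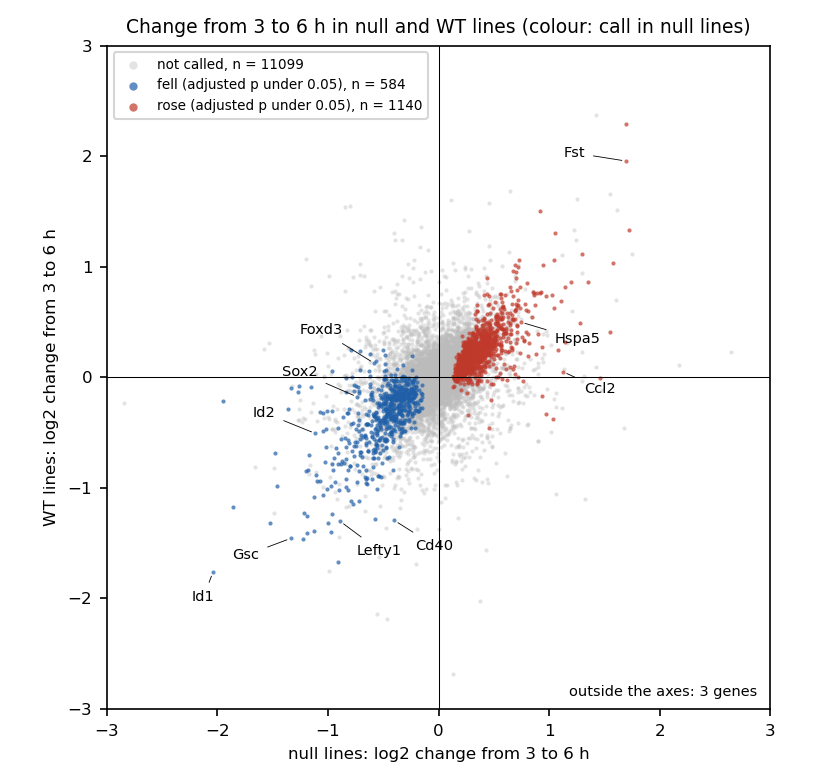
Change in log2(FPKM + 1) from 3 to 6 h in null lines (x axis) and WT lines (y axis), mean of 2 lines each, 1 point per gene tested and coloured by the call in null lines. Most called points have the same sign in both genotypes, with 95.7% of rises and 95.9% of falls on the same side of 0, and 3 uncalled genes fall outside the axes. The share over all genes tested was not taken.

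The test of the difference itself, null change minus WT change, called 0 genes by limma (smallest adjusted p 0.153), with 1176 genes (9.17%) at an unadjusted p under 0.05. The larger number of calls in null lines therefore does not show that any named gene changed differently. Of the 5 genes with the smallest p in each direction, Sox2, Foxd3, Id3 and Mkx were at well covered loci. Sox2 changed by -0.74 in null and -0.18 in WT lines, where it stood at 26.1 and 25.4 FPKM at 3 h and at 22.9 and 22.4 at 6 h (difference -0.56, SE 0.07, limma adjusted p = 0.297). Foxd3 differed by -0.71 (SE 0.11) and Id3 by -0.46 (SE 0.07), both with a limma adjusted p of 0.514. Mkx, a homeobox gene, stood at 3.50 and 3.95 FPKM at 3 h and at 3.35 and 3.82 at 6 h in null lines, and went from 8.30 and 8.11 to 3.87 and 4.25 in WT lines (difference 0.82, SE 0.11, limma adjusted p = 0.514). Lefty1, Cd40, Nanog and Fst were taken from the fixed set of pathway genes, whatever their p. Lefty1 fell by 0.89 in null and by 1.30 in WT lines, and Cd40 by 0.40 and 1.29, with differences of 0.41 (SE 0.18) and 0.89 (SE 0.14) that did not pass either (limma adjusted p = 0.545 and 0.514). Nanog and Fst differed by 0.15 and -0.26, with SE of 0.12 and 0.13.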

How the data were processed

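RNA of 12 libraries was sequenced as 50 bp single reads from poly(A) RNA, per the labels' protocols. The authors deposited FPKM per locus with a text status flag, per the file headers, and the submitters' processing notes name mm10. What aligned and quantified the reads, and whether strand was used, is not given in the sources used for this text, so overlapping and antisense genes are uncertain. Of 17446 loci, 2666 unnamed ones and 27 with a status other than OK were left out, and for each name the locus with the highest mean FPKM was kept (13508 genes). Coordinates are those of GENCODE M21 (GRCm38). A locus that covers under 0.5 of its annotated gene is called partly covered.

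The 12823 genes that reached 1 FPKM in 2 or more libraries entered limma 3.58.1 (R 4.3.3) as log2(FPKM + 1), a pseudocount that understates changes of low genes. The model held 6 group means and cell line as a block, a variance trend and 4 residual degrees of freedom. P-values are two-sided and Benjamini-Hochberg adjusted across the genes tested. The lines pair the dishes, since the 3 dishes of a line come from the same cells. Deviations from the group mean correlated at 0.246 to 0.349 between dishes of the null lines and at 0.017 to 0.054 in WT lines. Lines are the replicates, and p-values measure the spread between these dishes. In simulated data the fit recovered 100 of 100 genes changed by 1 and 80 of 100 changed by 0.5 (log2). The changed genes were drawn only from those with a mean log2(FPKM + 1) above 2, with independent normal noise. Recovery of lower genes was therefore not simulated. Named genes were the 15 largest called rises and falls, up to 6 called members per list, a fixed set of pathway genes and the 5 smallest p of the genotype difference in each direction. Alg12, Atf6, Bst2, Calr, Canx, Dnajc3, Ern1, Ifitm1, Lin28b, Msx2, Pdia6, Psmb10, Psmb9, Psme1, Rgs10 and Xbp1 were named after their values were seen. The members and gene lists were chosen with earlier results of these data known.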

Additional observations from a re-analysis of the deposited data

How the results depend on the processing

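Without the replicate block, calls from 3 to 6 h went from 1724 to 594 in null lines (356 rises, 238 falls) and from 852 to 325 in WT lines. Quantile normalization gave 681 null rises. Rescaling without Gm42418, an alternative chosen after seeing the data, gave 953 null calls (654 rises, 299 falls). It also made the summed FPKM of the remaining genes equal in all libraries, so its effect is not that of Gm42418 alone. The 3 and 6 h libraries of 1 genotype alone, with fewer residual degrees of freedom, gave 0 null calls in either direction, 1 WT call and 1 call for the genotype difference. Leaving out 1 line gave 0 to 0 null calls, also 0 rises and 0 falls, and 0 to 319 WT calls, from fewer samples. Pseudocounts of 0.1 and 0.5, a filter at 5 FPKM, no filter and no variance trend kept each of these counts within 1.5 times. The genotype difference had 0 calls in every other setting. Of 92 named calls, 24 were lost after rescaling without Gm42418, 11 without the variance trend, 11 under quantile normalization, 8 and 4 at pseudocounts of 0.1 and 0.5, 2 without a filter, and all with the 3 and 6 h libraries alone. Some calls given above only as lost without the block are among these. Some uncalled values turned sign: without line 25 or line 39, Ern1 was -0.17 or 0.19 and Fgf8 0.018 or -0.74, and Tdgf1 was -0.0045 under quantile normalization. The cause of these shifts was not tested. Read totals are unknown, and low genes are the least precise.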
